A study of Mus musculus with 6 samples.

Results

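Keratin-high cells were a small group of undifferentiated mouse embryonic stem cells (ESC) whose messenger RNA contained large amounts of simple epithelial keratins. They were chosen by a rule on measured values. Among barcodes that had 1000 genes or more and no more than 10% mitochondrial counts, one was taken when it held 10 or more molecules (unique molecular identifiers, UMIs) of Krt8, 10 or more of Krt18 and at least 1 of Krt7. It also had to hold UMIs of fewer than 3 of the 6 fibroblast genes Col1a1, Col1a2, Col3a1, Mgp, Bgn and Lox. The rule gave 62 cells among 1926 kept barcodes of the 2 ESC libraries, 30 in the parental library and 32 in the library of the Oct1_cKO genotype, written cKO here. The whole series had 7096 kept barcodes in 6 libraries.

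Single-cell RNA was sequenced from parental and Oct1_cKO cells as undifferentiated ESC and at day 3 and day 6 of differentiation towards mesoderm, with 1 library for each genotype and stage, from trypsinized suspensions tagged at the 5′ end of transcripts. Oct1, a broadly expressed transcription factor with a POU domain, is the product of Pou2f1. The ESC labels do not say whether a line was 1 clone, how the deletion was induced or which part of Pou2f1 it removes, so a tag count of Pou2f1 does not check the deletion. Because each genotype was 1 library, no difference between genotypes or cell groups had a replicate check, and no test was run: intervals cover counting error only, at the 95% level. The other kept barcodes were 1247 parental and 496 cKO cells with fewer than 3 fibroblast genes, called other ESC below, and 119 parental and 2 cKO barcodes with 3 or more, called fibroblast-like.

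As background, Krt8 and Krt18 form the keratin filaments of simple epithelia, and Krt7 is a further keratin of simple and ductal epithelia. In the early embryo these keratins mark the trophectoderm, the outer epithelium of the blastocyst that gives rise to the placenta. Cdx2, Gata3, Gata2, Tfap2c and Tead4 are transcription factors of that lineage, while Pou5f1, Sox2 and Nanog maintain the pluripotent inner cells. H19, an imprinted long non-coding RNA (chr7:142575529-142578143, minus strand, GRCm38), and Peg10, an imprinted protein-coding gene derived from a retrotransposon (chr6:4747306-4760517, plus strand), are both abundant in the placenta.

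Promoter sequences of 3 keratin genes of the rule, of the claudin gene Cldn4 and of Cdx2 are shown. The rule itself required the keratins together. Cldn4 and Cdx2 had higher summed levels in keratin-high cells than in other ESC of both libraries. Cdx2 was detected in only 16 of 30 parental and 12 of 32 cKO keratin-high cells. Each is the 250 bases before the RefSeq gene start, build GRCm38.p6, 5′ to 3′ on the gene's strand. Capitals mark matches to the octamer of POU factors (ATGCAAAT), to the AP-1 motif (TGANTCA) and to the AP-2 motif (GCCNNNGGC), searched on both strands. The windows are chr15:102004343-102004592 (minus strand, Krt8), chr15:102027966-102028215 (plus, Krt18), chr15:101412153-101412402 (plus, Krt7), chr5:134946935-134947184 (minus, Cldn4) and chr5:147307250-147307499 (minus, Cdx2).
Krt8: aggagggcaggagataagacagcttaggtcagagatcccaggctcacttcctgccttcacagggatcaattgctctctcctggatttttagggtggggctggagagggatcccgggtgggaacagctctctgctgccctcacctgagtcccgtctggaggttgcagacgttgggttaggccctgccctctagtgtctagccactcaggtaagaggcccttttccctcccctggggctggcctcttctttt
Krt18: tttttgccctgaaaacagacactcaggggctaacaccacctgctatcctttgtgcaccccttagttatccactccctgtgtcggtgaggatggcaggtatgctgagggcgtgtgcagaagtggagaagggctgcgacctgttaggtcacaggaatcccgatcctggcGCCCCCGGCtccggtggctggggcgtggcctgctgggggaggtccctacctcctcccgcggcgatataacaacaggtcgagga
Krt7: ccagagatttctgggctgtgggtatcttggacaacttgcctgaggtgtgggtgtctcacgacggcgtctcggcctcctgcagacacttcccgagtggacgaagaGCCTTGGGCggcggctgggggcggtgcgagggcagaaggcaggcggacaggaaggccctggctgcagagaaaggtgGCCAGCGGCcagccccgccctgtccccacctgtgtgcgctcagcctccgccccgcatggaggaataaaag
Cldn4: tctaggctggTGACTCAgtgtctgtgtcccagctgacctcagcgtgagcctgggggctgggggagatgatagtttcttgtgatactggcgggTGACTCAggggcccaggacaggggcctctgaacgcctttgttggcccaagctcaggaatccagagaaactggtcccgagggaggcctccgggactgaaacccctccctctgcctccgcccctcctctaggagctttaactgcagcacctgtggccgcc
Cdx2: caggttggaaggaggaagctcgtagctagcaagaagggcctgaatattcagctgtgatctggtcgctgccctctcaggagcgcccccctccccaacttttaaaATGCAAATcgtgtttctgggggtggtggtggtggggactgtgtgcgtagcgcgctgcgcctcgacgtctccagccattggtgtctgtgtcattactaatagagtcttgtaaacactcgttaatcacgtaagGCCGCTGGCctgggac

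The Krt8 window held none of the searched motifs. Krt18 held an AP-2 match starting 83 bases before the gene start, and Krt7 held 2, at 146 and 70 bases. Cldn4 held 2 AP-1 matches, at 240 and 158 bases. Cdx2 held the octamer 147 bases and an AP-2 match 16 bases before its start. No matches overlapped each other. Of all 32851 promoter windows of the table, 1.60% held the octamer, 6.75% the AP-1 motif and 13.7% the AP-2 motif. A match is a run of letters, not evidence of binding.

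The share of keratin-high cells was 2.15% in the parental library (30 of 1396, exact Clopper-Pearson interval 1.45% to 3.05%) and 6.04% in the cKO library (32 of 530, 4.17% to 8.42%). The cKO share was higher by 3.89 percentage points (Newcombe interval 1.94 to 6.34). The keratin-high cells had a median of 59351.5 UMIs and 6674 genes in the parental library and 80175 UMIs and 7446 genes in the cKO library, against 51848 and 70430 UMIs in the other ESC. After each cell was thinned to 20000 UMIs, with the Krt8 and Krt18 limits set at 4 UMIs, the shares were 1.67% (20 of 1199) and 3.92% (18 of 459), a difference of 2.25 points (0.57 to 4.52). The thinning left out 197 parental and 71 cKO barcodes.

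**Figure D1:**
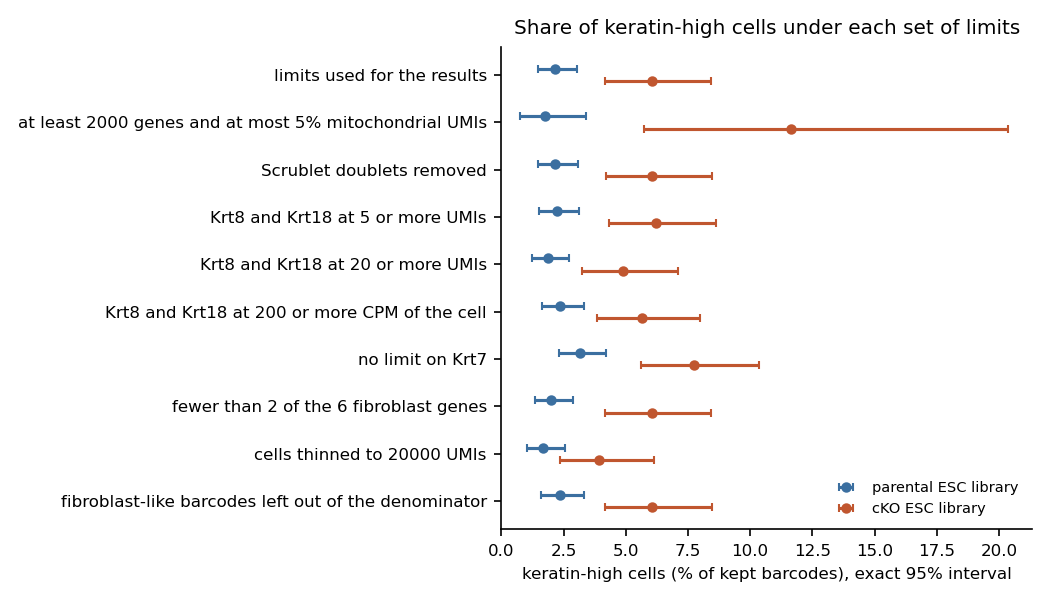
Share of keratin-high cells (x axis, % of kept barcodes) in the parental and cKO ESC libraries under the limits used and under each alternative, with exact 95% intervals. The cKO point lies to the right of the parental point in every row, from 3.92% against 1.67% in thinned cells to 11.6% against 1.75% at the stricter quality limits. Those stricter limits left only 10 cKO and 8 parental keratin-high cells, and the cKO interval there ran from 5.72% to 20.3%.

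Small shifts of the Krt8 and Krt18 limits left the number of cells almost unchanged. With the other limits kept, requiring both Krt8 and Krt18 at any value from 7 to 11 UMIs gave the same 30 parental cells, and 6 to 10 UMIs gave the same 32 cKO cells. A limit of 20 UMIs gave 26 in each library, and dropping the Krt7 limit gave 44 and 41. Just inside the limits lay cells with 11 and 15, 12 and 58, and 13 and 42 UMIs of Krt8 and Krt18 in the parental library. Just outside lay cells with 4 and 7, 12 and 4, and 6 and 7 UMIs. In the cKO library the nearest cells inside held 18 and 10, 11 and 11, and 24 and 15 UMIs, and those outside 18 and 3, 6 and 4, and 29 and 5. A further 30 parental (2.15%) and 53 cKO barcodes (10.0%), part of the other ESC, reached 10 UMIs of Krt8 or Krt18 without meeting the whole rule. These partial cells were set apart after their values had been seen.

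No fibroblast-like barcode met the keratin limits, and Scrublet called none of the 62 cells a doublet, against 6 parental and 3 cKO other ESC. In the 119 parental fibroblast-like barcodes, which serve as a level for free RNA, Krt8 was detected in 7.56%, Krt18 in 8.40% and Krt7 in 2.52%, at a median depth of 49594 UMIs. Kept barcodes of the 2 ESC libraries shared no sequence. Median mitochondrial shares were alike in keratin-high cells and other ESC. They were 5.63% and 5.23% in the parental and 6.06% and 6.13% in the cKO library. Single keratin-high cells ran from 0.038% to 9.09% in the parental and from 0.036% to 9.31% in the cKO library. Their depth ran from 4580 to 166608 UMIs and from 2812 to 180295 UMIs. The 6 fibroblast genes, which the rule itself held low, ran from 0 to 5.02 CPM (UMIs of a gene per 1e6 UMIs of the group or cell) in the parental and from 0 to 4.78 CPM in the cKO keratin-high cells.

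The keratins that chose the cells are given as a description. Krt8 ran from 200 through a median of 2466 to 12849 CPM in single parental keratin-high cells and from 61.0 through 2096 to 8535 CPM in cKO cells. Krt18 ran from 302 through 2716 to 15340 CPM and from 61.0 through 1501 to 6707 CPM. Krt7 had medians of 131 and 99.1 CPM. Summed over cells, Krt18 was at 3976 CPM in the parental and 1937 CPM in the cKO keratin-high cells, while Krt8 was at 2930 and 2309 CPM. Krt8 and Krt18 lie 23.7 kb apart on chromosome 15. Krt19, an acidic simple-epithelial keratin on another chromosome that the rule did not use, was at 126 CPM against 10.5 in parental other ESC and 118 against 7.10 CPM in cKO other ESC, with UMIs in 20 keratin-high cells of each library. Krt20, found in gut and urinary epithelium, was at 6.78 CPM in cKO keratin-high cells and at 0 UMIs in parental ones, which allows up to 1.51 CPM. Krt42, another type I keratin, was lower in keratin-high cells, at 6.03 against 29.5 CPM and 3.19 against 15 CPM.

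H19, a marker proposed for these cells, was detected in 22 of 30 parental and in 13 of 32 cKO keratin-high cells. Parental cells ran from 0 through a median of 241 to 6772 CPM, and cKO cells from 0 through 0 to 2014 CPM. Values therefore overlapped those of other ESC, where H19 was found in 6.58% and 5.24% of cells and where 1 parental cell, itself a partial cell, reached 6428 CPM. Summed over cells, H19 stood at 550 CPM (Poisson interval 518 to 584) against 5.38 CPM in parental other ESC, a log2 ratio of 6.68 (6.51 to 6.85). In the cKO library it stood at 138 CPM (123 to 153) against 0.91, a log2 ratio of 7.24 (6.72 to 7.80). A single cell held 26.1% of the parental and 38.6% of the cKO H19 UMIs in keratin-high cells. Without that cell the levels were 419 and 87.3 CPM. No H19 UMI was found in 8 parental and 19 cKO members, so in most cKO keratin-high cells this proposed marker was not detected.

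Peg10 was more evenly spread. UMIs were present in 29 of the 30 parental and 31 of the 32 cKO keratin-high cells, with medians of 477 and 551 CPM and highest values of 2171 and 3587 CPM. Other ESC had medians of 0 and 39.7 CPM, but single cells reached 1962 and 2439 CPM, so the ranges overlapped. Summed, Peg10 was at 532 against 39.2 CPM in the parental library (log2 ratio 3.76, 3.66 to 3.86) and at 612 against 95 CPM in the cKO library (2.69, 2.60 to 2.77). Sgce, the imprinted gene that starts 0.099 kb from Peg10 on chromosome 6 and is transcribed away from it, had log2 ratios of 2.17 and 1.5.

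**Figure D2:**
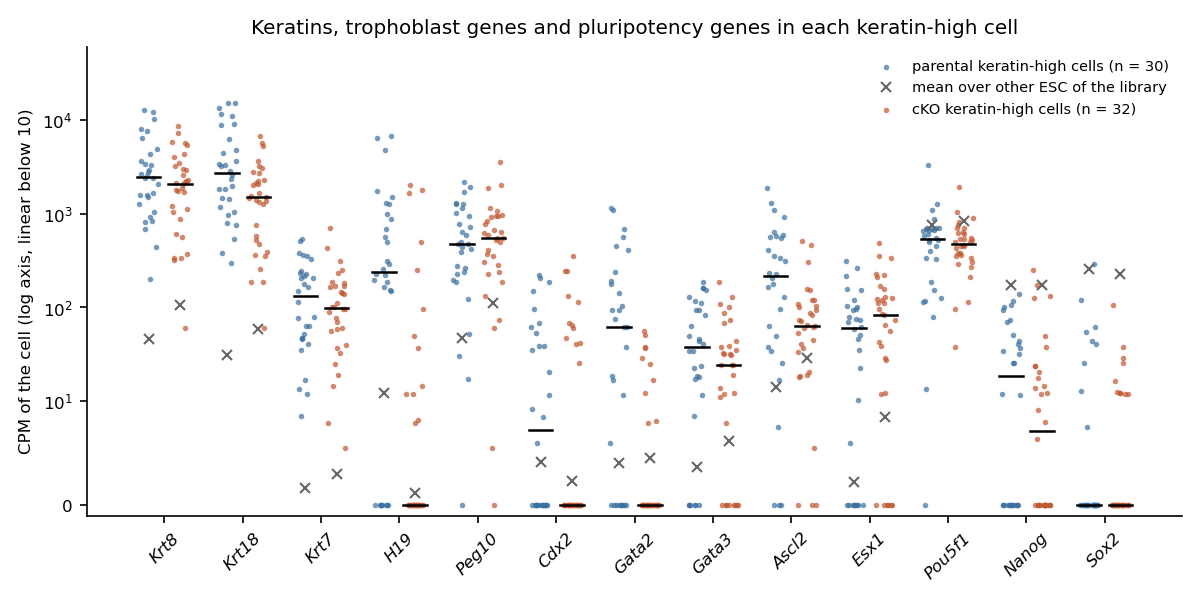
CPM (y axis, log scale, linear below 10) of 13 genes in each parental (n = 30) and cKO (n = 32) keratin-high cell. Bars are medians over the keratin-high cells and crosses are the means over the other ESC of the same library. Pou5f1 medians lie below the crosses by less than those of Nanog, while most Sox2 points lie at 0 and most Peg10 points lie above their crosses.

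Compared gene by gene with the other ESC of their library, the keratin-high cells differed in many genes. Since the cells were chosen from these same profiles, the counts are descriptions. Leaving out the 9 genes of the rule, 454 of 5419 genes measured in both libraries (8.38%) were at least 2-fold higher in keratin-high cells of both, and 181 (3.34%) at least 2-fold lower, with at least 20 CPM in the higher group. The parental library gave 714 higher (12.4% of 5767) and 335 lower genes (5.81%), and the cKO library 679 (11.7% of 5825) and 317 (5.44%). Leaving aside mitochondrial, ribosomal protein and unnamed genes, no gene at 20 CPM was past the limit in opposite directions in the 2 libraries. At the 5 CPM used for gene lists, Pou3f1 was called higher in the parental and lower in the cKO library. Tagln and Tgfb1 were called lower in the parental and higher in the cKO library. The split between directions moved with the scaling: TMM factors gave 348 higher and 260 lower genes in both libraries and shifted the median log2 ratio of all genes from 0.06 to -0.11 in the parental and from 0.09 to -0.08 in the cKO library. Leaving out, for each gene, the keratin-high cell with most of its UMIs gave 330 and 253.

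**Figure D3:**
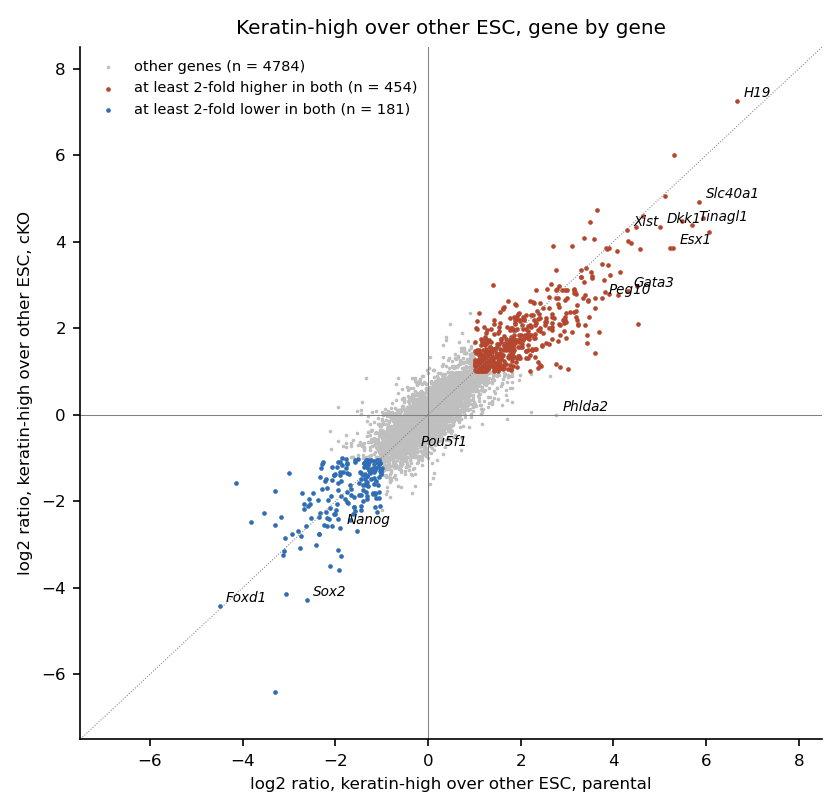
Log2 ratio of summed CPM, keratin-high over other ESC, in the parental (x axis) and cKO (y axis) library for 5419 genes outside the rule. The 454 genes at least 2-fold higher and 181 at least 2-fold lower in both libraries are coloured, H19 lies at the upper right and Foxd1 and Sox2 at the lower left, and Phlda2 lies near 0 on the y axis only.

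The 15 genes with the largest ratio in both libraries, H19 among them, included several that code for epithelial or secreted proteins. Tinagl1, a secreted basement-membrane protein, was at 118 against 2.29 CPM and 126 against 6.03 CPM. Prss8, a membrane-anchored serine protease of epithelia, was at 59.7 against 1.35 and 54.2 against 2.45 CPM. Among the same 15 genes were Slc40a1, the iron exporter ferroportin (log2 ratios 5.85 and 4.92), and Dkk1, a secreted Wnt antagonist (5.0 and 4.34). Amot, a junction protein that binds YAP, had log2 ratios of 5.11 and 5.05, and Csf1, the macrophage growth factor, 5.30 and 6.01. Others were Cxcl16, Gsn, Cryab, Anxa2, Esx1, Cldn7 and Xist. Xist, the non-coding RNA of X inactivation, differed from the others in its spread: 1 cell held 88.3% of its UMIs in parental and 96.7% in cKO keratin-high cells. Without that cell Xist was at 4.63 and 1.65 CPM, against 1.96 and 2.48 CPM in other ESC.

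Trophoblast genes were higher in the keratin-high cells of both libraries. Of 20 genes in the list, 15 reached 5 CPM in the parental comparison, of which 14 were at least 2-fold higher in keratin-high cells and 1 lower, with a median log2 ratio of 3.43. Over all 9547 genes at that level 14.5% were higher and 7.93% lower, with a median of 0.06. In the cKO library 11 of 14 were higher and 1 lower, with a median of 1.91, against 14.8% and 6.58% of 9693 genes and a median of 0.09. The other ESC held 30 partial cells among 1247 in the parental and 53 among 496 in the cKO library. No alternative left all of these out. In both libraries together 10 of 13 were higher, against 9.38% of 9181 genes. The list includes Peg10, which was already proposed as a marker of these cells.

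Among transcription factors of the list, Gata3 was at 53.2 against 2.69 CPM in the parental library and at 40.3 against 5.59 CPM in the cKO library. It was detected in 24 keratin-high cells of each library, against 10.1% and 17.7% of other ESC and 35.3% of parental fibroblast-like barcodes, so its detection alone does not mark the group. Cdx2, chosen after its values were seen, was at 35.6 against 4.14 CPM and 34.7 against 2.31 CPM. It was detected in 16 parental and 12 cKO keratin-high cells, and the remaining cells held none. In cells thinned to 20000 UMIs Cdx2 was found in 48.0% and 31.0% of keratin-high cells and in 6.06% and 4.66% of other ESC. Esx1, an X-linked homeobox gene of the placenta, was at 65.8 against 1.68 CPM and 92.5 against 6.39 CPM, in 22 and 26 cells. Ascl2, an imprinted factor of trophoblast progenitors, was at 300 against 12.9 CPM and at 97.3 against 22.8 CPM, in 27 and 29 cells. Gata3, Esx1 and Ascl2 were thus present in most keratin-high cells of both libraries, and Cdx2 in 16 of 30 and 12 of 32.

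Not every trophoblast gene was high. Eomes, a factor of trophoblast stem cells and of mesendoderm, was lower in the keratin-high cells, at 1.51 against 11.8 CPM and 1.2 against 13.4 CPM. Elf5, Tpbpa and Prl3d1, looked at as genes of trophoblast stem cells, spongiotrophoblast and giant cells, had no UMI in any keratin-high cell, which allows up to 1.51 CPM in the parental and 1.2 CPM in the cKO group at 3 counts. Hand1, a factor of trophoblast and mesoderm, was at 4.52 against 0.10 CPM and 7.18 against 0.28 CPM, in 6 and 7 cells. Per cell thinned to 20000 UMIs, a median of 8 of the 20 trophoblast genes was detected in parental keratin-high cells and 5 in cKO keratin-high cells, against 2 in the other ESC of either library. The partial cells lay between, with medians of 3 and 4.

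**Figure D4:**
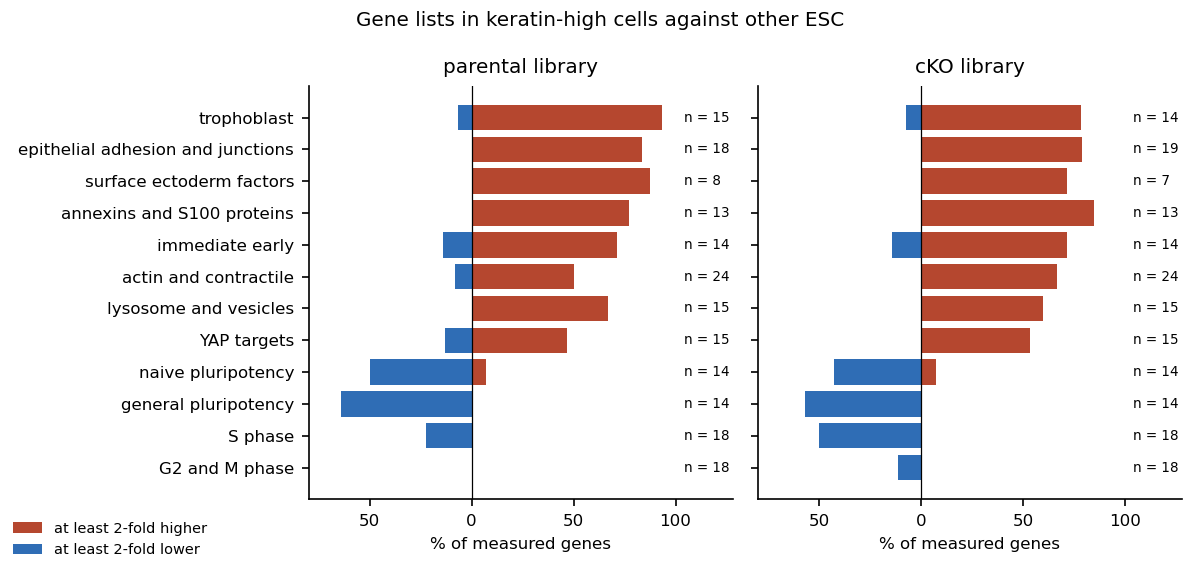
Share of measured genes of 12 lists that were at least 2-fold higher (right of 0) or lower (left of 0) in keratin-high cells than in other ESC, for each library, n being the genes at 5 CPM or more. Trophoblast, adhesion, annexin and S100 lists point to the right in both libraries and the pluripotency lists mostly to the left.

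Genes of epithelial adhesion and junctions were higher in 15 of 18 measured in the parental library and 15 of 19 in the cKO library and lower in none, where 14.5% and 14.8% of all genes were higher and 7.93% and 6.58% lower. The median log2 ratios were 1.93 and 2.00, and 14 of 18 were higher in both. Cldn7 was at 115 against 8.09 CPM and 77.3 against 5.31 CPM. Dsp, which codes for the desmosomal plaque protein desmoplakin, was at 34.6 against 1.75 CPM and 39.9 against 2.45 CPM. Cldn4, a tight-junction claudin chosen after its values were seen, was at 325 against 21.8 CPM and 356 against 51.7 CPM and was detected in 28 and 30 keratin-high cells. Cdh1, which ESC also express, had smaller log2 ratios of 1.33 and 1.32, and Epcam 1.30 and 0.97.

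Surface ectoderm factors, which partly overlap the trophoblast list, were higher in 7 of 8 measured and in 5 of 7, with none lower (all genes 14.5% and 14.8% higher). Msx2 was at 72.3 against 3.16 CPM and 24.3 against 3.08 CPM, and Elf3, an epithelial ETS factor, at 280 against 33.3 and 173 against 33.6 CPM. Trp63, the master factor of stratified epithelium, had no UMI in the keratin-high cells. Of 9 stratified keratins only 2 parental and 1 cKO reached 5 CPM. Krt17 was at 0.50 against 6.37 CPM in the parental library, and Krt10 at 25.9 against 12.4 CPM in the cKO library.

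Annexins and S100 proteins, calcium-binding proteins of the membrane and cytoskeleton, were higher in 10 of 13 and 11 of 13 genes, with none lower, against 14.5% and 14.8% of all genes higher and 7.93% and 6.58% lower. The same shares apply to the lists that follow. Anxa2 was detected in 30 of 30 and 31 of 32 keratin-high cells, with medians of 251 and 206 CPM, and S100a6 was at 365 against 35.6 CPM and 1077 against 63.6 CPM. Both are also fibroblast genes, and the parental fibroblast-like barcodes held 393 CPM of Anxa2 and 6240 CPM of S100a6. Actin and contractile genes were higher in 12 of 24 and 16 of 24, with 2 and 0 lower. Csrp1 had log2 ratios of 3.14 and 2.91, and Lmna, the nuclear lamina gene, 2.81 and 2.48, with 108 and 396 CPM in parental fibroblast-like barcodes. Cldn4, Cldn7 and Esx1, in contrast, stood at 6.76, 0.33 and 0.16 CPM there. Lysosome and vesicle genes were higher in 10 of 15 and 9 of 15, and YAP targets in 7 and 8 of 15, with 2 and 0 YAP targets lower. Ankrd1, the YAP target with the largest ratio, was detected in 9 and 10 keratin-high cells only. Immediate early genes were higher in 10 of 14 in each library and lower in 2. Jun had log2 ratios of 3.24 and 2.08 and Klf6 of 3.61 and 2.69.

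Fabp3, a fatty-acid-binding protein chosen after its values were seen, was detected in every keratin-high cell. Parental keratin-high cells ran from 657 through a median of 8850 to 29312 CPM and cKO cells from 1564 through 9349 to 16792 CPM. Other ESC had medians of 401 and 680 CPM, and single cells reached 25260 and 22423 CPM. Fibroblast-like parental barcodes had a median of 299 CPM. Among partial cells the medians were 3191 and 3538 CPM.

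Pluripotency genes differed among themselves, with smaller differences from other ESC for Pou5f1 than for Sox2. Pou5f1 was at 593 CPM in parental keratin-high cells and 732 CPM in other ESC, a log2 ratio of -0.30 (-0.39 to -0.22), and at 463 against 814 CPM in the cKO library (-0.81, -0.90 to -0.73). It was detected in 29 of 30 and 32 of 32 cells, and medians were 540 and 477 CPM. Fibroblast-like parental barcodes had a median of 0 and Pou5f1 UMIs in 36.1%. Sox2, the partner of Pou5f1 in the pluripotency network, was at 43.7 against 268 CPM (log2 ratio -2.62) and 12.4 against 240 CPM (-4.28). No Sox2 UMI was found in 21 of 30 parental and 22 of 32 cKO keratin-high cells, whereas 92.7% and 91.1% of other ESC held one. A single cell held 55.2% and 61.3% of the Sox2 UMIs of the keratin-high cells. In thinned cells the Sox2 shares were 12% and 10.3% against 95.7% and 92.8%.

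Nanog lay between these factors. It was at 46.7 against 173 CPM and 28.7 against 178 CPM, and 13 parental and 15 cKO members held no UMI. In 12 members of each library both Sox2 and Nanog were at 0. Of 14 general pluripotency genes, 9 were at least 2-fold lower in the parental and 8 in the cKO library, and 0 were higher. Dppa5a, by contrast, chosen after its values were seen, stood at 3110 against 4327 CPM and 3239 against 4581 CPM. Of 14 naive pluripotency genes 7 and 6 were lower. Dppa3 alone was higher, at 42.2 against 13.9 CPM and 14.4 against 2.40 CPM. Klf2 was at 143 against 522 CPM and 36.7 against 352 CPM.

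Other genes lowest in both libraries included Foxd1, a forkhead factor, at 1.0 against 22.6 CPM and 6.78 against 145 CPM. Olig2, Platr10, Rcor2, Fgf4, the growth factor that ESC secrete, and its response gene Etv4 were also among the 15. Fgf4 was at 8.03 against 79.1 CPM and 12.8 against 74.5 CPM. Tdh, the threonine dehydrogenase of mouse ESC metabolism, was at 92.9 against 625 CPM and 81.7 against 574 CPM. Upp1, Slc7a3, Manba, Enox1, Epp13 and Pla2g1b also belonged to them. Of 18 S-phase genes 4 were lower in parental and 9 in cKO keratin-high cells and 0 were higher, with median log2 ratios of -0.84 and -1.09, where 7.93% and 6.58% of all genes were lower. G2 and M genes were lower in 0 and 2 of 18, near those shares, with medians of -0.10 and -0.58. Ccnd1, the cyclin of G1, was at 39.7 against 152 CPM and 9.97 against 87.1 CPM.

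Markers of other lineages were checked in the same cells. Of 18 genes of primitive and visceral endoderm, which also carries Krt8 and Krt18, 6 parental and 4 cKO genes reached 5 CPM, of which 4 and 3 were higher and 1 in each library, Apoe, lower, against 14.5% and 14.8% of all genes higher and 7.93% and 6.58% lower. The higher ones were Dab2, Lrp2 and Cited1 in both and Gata6 in the parental library. Lrp2, an endocytic receptor, was at 48.2 against 4.24 CPM and 96.9 against 9.80 CPM. The defining factors Sox17, Gata4 and Gata6 were at 4.02, 2.01 and 6.53 CPM in the parental and at 0.40, 1.99 and 2.39 CPM in the cKO keratin-high cells. Levels of Sox17 and Gata4 in other ESC are not reported here, so these values do not show whether they differed from other ESC. The summed level of the endoderm list ran from 0 through a median of 471 to 2655 CPM in parental keratin-high cells and from 0 through 890 to 3615 CPM in cKO cells. Other ESC had medians of 1533 and 1724 CPM. Apoe, named after its values were seen, made up much of these sums, at 482 against 1744 CPM in the parental and 1052 against 2108 CPM in the cKO library. By number of endoderm genes per cell thinned to 20000 UMIs the order was the other way, with a median of 3 in keratin-high cells and 1 in other ESC of either library. Of 15 primitive streak and mesoderm genes 3 reached 5 CPM in each library. The parental ones, T, Eomes and Bmp4, were all lower. The cKO library had Eomes and Bmp4 lower and Hand1 higher. Parietal endoderm matrix genes were mixed, with 4 of 8 higher and 1 or 2 lower in a library. Among them Sparc was at 1086 against 403 CPM and 1534 against 335 CPM. Primed epiblast genes split between libraries, with 3 of 8 higher and 1 lower in the parental and 1 of 7 higher and 4 lower in the cKO library. Sox4 was higher in both, at 130 against 37.5 CPM and 124 against 59.1 CPM.

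Imprinted genes were mixed. Of 15 paternally expressed genes measured in the parental library, 6 were at least 2-fold higher, and 5 of 14 in the cKO library, with 0 lower in either, against 14.5% and 14.8% of all genes higher. Of 12 maternally expressed genes 5 and 2 were higher, and 3 and 0 lower, the 2 of the cKO library being near the share over all genes. Peg3 was at 1381 against 277 CPM and 1106 against 303 CPM. Igf2, which lies 72.6 kb from H19 on chromosome 7 and is expressed from the other parental allele in most tissues, was at 11 CPM in parental keratin-high cells, in 11 of 30 cells, against 0.10 CPM in other ESC. In the cKO library it was at 3.19 against 0.14 CPM, in 5 of 32 cells. Mirg, a microRNA host of the imprinted cluster on chromosome 12, was lower in parental keratin-high cells, at 3.01 against 11 CPM, and at 27.9 against 20.4 CPM in the cKO library.

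Between genotypes, many trophoblast genes were lower in the cKO keratin-high cells, and of the lists with 10 or more measured genes this one had the median furthest from 0. In cKO keratin-high cells 8 of 15 measured trophoblast genes were at least 2-fold below the parental keratin-high cells and 0 were above, with a median log2 ratio of -1.62. Over all 9692 genes at 5 CPM, 4.07% were lower and 7.58% higher, with a median of 0.03. In other ESC of the same libraries 0 of 11 were lower and 3 higher, where 0.717% and 1.37% of all genes were. Those other ESC included the partial cells, 30 of 1247 parental and 53 of 496 cKO cells. The 8 genes were Gata2, Tfap2c, Ascl2, Gcm1, Plac1, Rhox6, Rhox9 and Phlda2. Leaving out for each gene the cell with most of its UMIs again gave 8 of 15 lower and 0 higher, with a median of -1.34. That step removes 1 cell per gene and library, so it does not show whether a gene rests on a few cells. No comparison of the genotypes had a second library.

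Gata2 codes for a transcription factor of trophoblast and of blood progenitors. Parental keratin-high cells stood at 141 CPM (125 to 158) and cKO ones at 7.58 CPM (4.56 to 11.8), a log2 ratio of -4.21 (-4.97 to -3.54), while in other ESC it was at 2.78 and 4.10 CPM. UMIs were found in 21 of the 30 parental members, with a median of 62.1 and a highest value of 1156 CPM, and in 10 of the 32 cKO members, with a median of 0 and a highest value of 56.5 CPM. The ranges overlapped, but the highest cKO value lay below the parental median. In thinned cells the shares with a UMI were 48.0% (27.8% to 68.7%) and 17.2% (5.85% to 35.8%), and these intervals overlap. Gata2 and Gata3 UMIs occurred together in 18 parental and 8 cKO cells, and Gata3 without Gata2 in 6 and 16.

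Tfap2c, which codes for AP-2 gamma, was at 77.3 CPM in parental and 14.4 CPM in cKO keratin-high cells (log2 ratio -2.43, -3.00 to -1.90), in 22 and 11 cells. Ascl2 was at 300 and 97.3 CPM (-1.62, -1.84 to -1.41). Phlda2, an imprinted regulator of placental growth, was at 266 and 24.7 CPM (-3.43), with UMIs in 17 parental and 20 cKO members, and 1 parental cell held 34.3% of the parental UMIs. Without the leading cell of each library it was at 183 and 18.5 CPM. The parental level still rested on few cells: the next held 116, 77 and 62 Phlda2 UMIs, and no other held more than 22. Gcm1, a factor of the placental labyrinth, had 29 UMIs in 6 parental cells and 1 UMI in the cKO cells (-5.19, -10.54 to -2.60). H19 was also lower in cKO keratin-high cells (-2.00, -2.18 to -1.82), and lower by 2.57 in other ESC. The H19 level of parental other ESC rested partly on few cells. Without the Krt7 limit, which moved 14 parental cells into the keratin-high group, the parental H19 log2 ratio over other ESC was 8.32. With that limit it was 6.68, while the cKO ratios were 7.21 without it and 7.24 with it. Cdx2, Gata3, Tead4, Esx1, Peg10, Plet1 and Hand1 stayed within 2-fold between the genotypes. For Cdx2 the log2 ratio was -0.04 (-0.51 to 0.43).

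**Figure D5:**
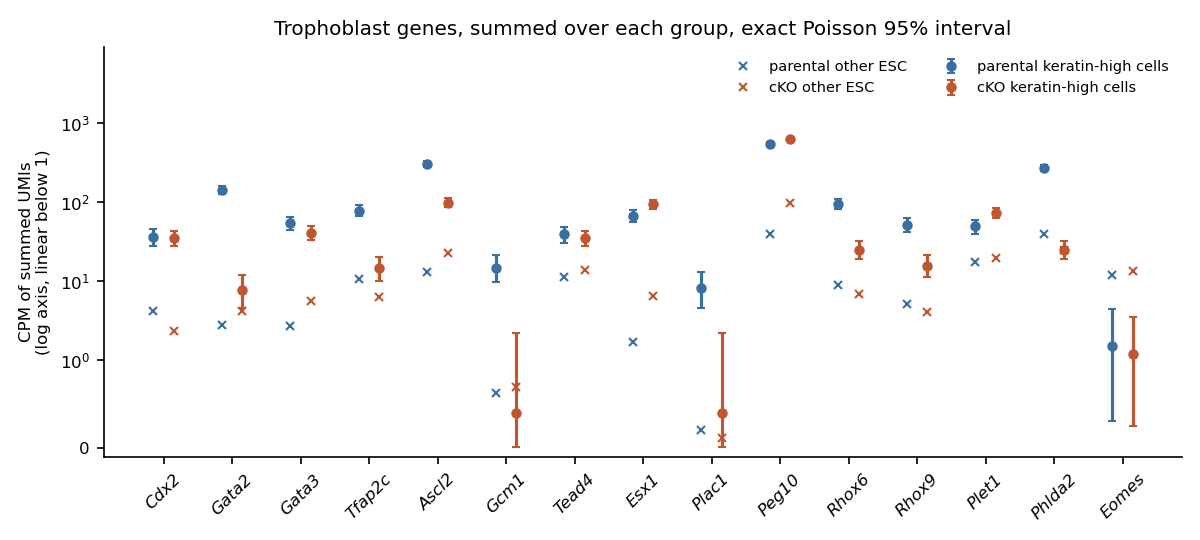
CPM of summed UMIs (y axis, log scale, linear below 1) of 15 trophoblast genes in parental and cKO keratin-high cells, with exact Poisson 95% intervals, and in other ESC of each library (crosses). Gata2, Tfap2c, Ascl2, Gcm1, Plac1, Rhox6, Rhox9 and Phlda2 show parental points above cKO points, while Cdx2, Gata3, Tead4 and Peg10 lie close together.

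The genotypes differed in more genes in keratin-high cells than in other ESC, though over far fewer cells. Over all genes, 196 of 5772 (3.40%) were at least 2-fold higher in cKO than in parental keratin-high cells and 130 (2.25%) lower, at 20 CPM or more. These counts depended on the processing, with 744 and 685 in the 8 and 10 cells of stricter quality limits and 247 lower genes by the mean over cells. The same limits gave 42 higher (0.801% of 5246) and 15 lower genes (0.286%) in other ESC. Eno3, a muscle enolase, was at 80.9 CPM in cKO and 11 CPM in parental keratin-high cells, in 25 and 9 cells, with other ESC at 12.9 and 12.3 CPM. In other ESC its genotype levels were close. Bok, a BCL2-family member, was at 75.8 against 12.1 CPM in cKO and parental members and at 15 and 12.5 CPM in other ESC. Cyp1a1, the xenobiotic-induced oxidase, was at 68.2 against 6.03 CPM and Rcan2 at 33.1 against 2.51 CPM. Tagln, an actin-binding protein of smooth muscle and fibroblasts, was at 69.0 against 3.51 CPM, and 1 cell held 62.4% of its UMIs. Ccdc80 had 65.3% in 1 cell. Gng13 and Mirg completed the 8 highest.

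Among genes lower in cKO keratin-high cells, Nxf7, an X-linked member of the RNA-export factor family, had UMIs in 13 of 30 parental and 0 of 32 cKO members. It stood at 30.1 CPM against 0 UMIs, which allows up to 1.2 CPM at 3 counts. Crlf2 and Rhox5 were lower both in keratin-high cells (log2 ratios -5.09 and -5.54) and in other ESC (-7.06 and -4.35). Pou3f1, a POU factor of the primed epiblast, was at 55.2 CPM in parental and 2.39 CPM in cKO keratin-high cells, with 6.46 and 7.93 CPM in other ESC. The remaining genes of the 8 lowest were Gata2, Phlda2, Cidea and CAAA01118383.1. Pou2f1 was at 29.1 CPM in parental and 14.4 CPM in cKO keratin-high cells (log2 ratio -1.02, -1.66 to -0.40) and at 31.6 and 21.9 CPM in other ESC.

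The members varied among themselves. Summed trophoblast counts ran from 166 through a median of 1911 to 7868 CPM per parental cell and from 205 through 1109 to 3964 CPM per cKO cell. Summed general pluripotency counts ran from 506 through 3844 to 8921 CPM and from 1107 through 4693 to 9435 CPM. Across the cells of 1 library the rank correlation of the trophoblast and pluripotency sums was -0.28 over 30 parental and -0.25 over 32 cKO cells. Krt8 plus Krt18 followed the trophoblast sum with 0.27 and 0.60. These cells share a library and differ in depth, and the trophoblast sum itself had a rank correlation of -0.52 with UMIs per cell in the parental and -0.21 in the cKO library. The 5 genes most like H19 by rank correlation over cells were Rbbp7, Zfp655, Eif3j1, Nrk and Dusp9 in the parental library (0.73 for Rbbp7, n = 30). In the cKO library they were Fasn, Iffo1, Slc12a2, Plcg2 and S1pr1 (0.73 for Fasn, n = 32), and no gene was in both sets.

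Across promoters, 11.2% of the 367 genes higher in both libraries with a RefSeq window held the AP-1 motif found in Cldn4, against 4.55% of the 4350 measured genes with one and 4.90% of the 143 lower genes. The octamer was in 2.72%, 1.26% and 3.50%, and the AP-2 motif in 26.4%, 23.8% and 24.5%.

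The same limits were applied to the later stages, where they pick cells of another background. At day 3 they gave 16 of 948 parental (1.69%, 0.97% to 2.73%) and 12 of 1026 cKO barcodes (1.17%, 0.61% to 2.03%). At day 6 they gave 198 of 1546 (12.8%, 11.2% to 14.6%) and 705 of 1650 (42.7%, 40.3% to 45.2%). Cdx2 was at 1.27 CPM in parental and at 0 UMIs in cKO cells at day 3 (upper Poisson limit 3.46 CPM) and at 6.22 and 3.39 CPM at day 6, below the 35.6 and 34.7 CPM of the ESC stage. Fabp3 was at 784 and 1143 CPM at day 3 and 560 and 881 CPM at day 6, against 9008 and 8828 CPM at the ESC stage. H19 was at 1.27 and 12.2 CPM at day 3 and at 299 and 212 CPM at day 6, where the other cells were at 159 and 522 CPM. Pou5f1 was at 7.27 and 3.61 CPM by day 6. Cells chosen by the same keratin limits thus held Cdx2, Fabp3 and Pou5f1 at other levels in each stage. Some genes high at the ESC stage were also higher in the chosen cells at day 6 than in the other cells. There Peg10 was at 209 against 60.6 CPM in the parental and 249 against 170 CPM in the cKO library. Cldn4 was at 171 against 17.5 and 204 against 59.5 CPM, and Esx1 at 10.5 against 1.47 and 22.4 against 1.44 CPM.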

How the data were processed

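UMI counts per gene and barcode from 10x 5' libraries of the parental and Oct1_cKO ESC were used as deposited. Per the file headers they were made with Cell Ranger 3.1.0, and per the submitters' processing notes the build was mm10. The files hold 31053 genes and no cell annotation, so the groups rest on the rule given above. Barcodes below 1000 genes or above 10% mitochondrial UMIs were left out. The ESC libraries held 81932435 and 41665721 UMIs before that filter. Counts were summed over the cells of a group and library and given as CPM. With 1 library a group, no test was made. Intervals are exact (Poisson, Clopper-Pearson, conditional binomial) or Newcombe's, cover counting error only, and use a 95% level. A gene was measured at 20 CPM or more in the higher group (5 CPM for lists) and called at 2-fold. A group at 0 was set to a floor of 3 counts. Rule genes were left out of calls.

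The text names the 15 genes with the largest ratio in each direction in both libraries, the 8 in each direction between genotypes, up to 3 of each list, and the keratin markers. Some genes that this rule gives are not reported here. The members and the gene lists were chosen with earlier results of these data known. Cdh1, Cdx2, Cldn4, Dppa5a, Elf5, Eomes, Epcam, Fabp3, Gata4, Gata6, Gcm1, Hand1, Plac1, Plet1, Prl3d1, Rhox6, Rhox9, Sgce, Sox17, Tead4, Tpbpa and Trp63 were added after their values were seen. Promoters come from RefSeq (GRCm38.p6), gene positions from GENCODE annotation of GRCm38. Doublets were scored with Scrublet in scanpy 1.11.5, TMM factors came from edgeR 4.0.16, and the other steps used scipy 1.17.1, pandas 2.3.3 and numpy 2.4.6 (Python 3.11.15). Simulated counts were Poisson draws from the summed levels, with no variation between cells or libraries. On them the calls recovered 98% to 100% of 50 genes at each size of 3- and 4-fold in the parental comparison (5005 genes). In the comparison of genotypes (5345 genes) they recovered 100% of higher genes, 98% at 3-fold lower and 92% at 4-fold lower, and called 0.0194% of unchanged genes. That last share is not the rate of false calls between the real groups, whose cells and libraries vary further.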

Additional observations from a re-analysis of the deposited data

How the results depend on the processing

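Of 139 values recomputed under alternatives, 98 moved by less than the counting interval or, for counts of genes, 1.5 times. The other 41 moved further. Only the difference of the shares and the H19 and Peg10 ratios could change direction, and 0 did. Stricter quality limits (2000 genes or more, 5% mitochondrial UMIs or less) left 8 and 10 keratin-high cells. There the cKO share was 11.6%, the difference 9.88 points, the genotype calls 744 higher and 685 lower, the H19 log2 ratios 7.13 (parental) and 5.84 (cKO) and that of cKO Peg10 2.89. With Krt8 and Krt18 at 20 UMIs the H19 ratios were 6.30 and 6.63 and cKO Peg10 2.83. With 200 CPM as the limit cKO H19 was 6.56 and Peg10 2.82. Without a Krt7 limit the parental share was 3.15%, parental H19 8.32 and cKO Peg10 2.58. Parental H19 was 7.05 at fewer than 2 fibroblast genes, 6.99 against other ESC at or above the lower quartile of the keratin-high cells' depth and 6.32 as a mean over cells, where 247 genes were lower between genotypes. Thinning gave a cKO share of 3.92%. Parental Peg10 was 3.87 with fibroblast-like barcodes among the compared cells. Scaling moved Peg10 to 3.6 and 2.53 with TMM and to 3.65 and 2.53 with median-of-ratios factors, the latter with 358 higher and 240 lower genes in both libraries. Measured at 5 CPM, 861 genes were higher and 357 lower in both libraries and 735 and 394 between genotypes. With no CPM limit but 10 UMIs these were 1821, 541, 968 and 494, and at 1.5-fold 851, 493, 601 and 527. Without the leading cell of each gene, chosen after seeing the data, H19 was 6.28 and 6.59 and Peg10 3.55 and 2.57. The causes of these shifts were not tested. No paired analysis was possible because each group held 1 library. With 30 and 32 cells, genes in few cells rest on single cells, and a difference between genotypes cannot be told apart from one between libraries.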

Other observations

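By chromosome, X-linked genes and those of chromosomes 1, 3, 6 and 19 were called higher in keratin-high cells most often. Of their measured genes 13.5%, 13.5%, 12.7%, 12.5% and 11.1% were at least 2-fold higher in both libraries, against 8.38% of all genes. The shares of UMIs did not follow these counts on every chromosome: chromosome 1 gave a median of 4.98% of a cell's UMIs in parental keratin-high cells against 5.4% in other ESC, and 4.72% against 5.31% in the cKO library, and chromosomes 3 and 6 were at 4.07% against 4.07% and 4.20% against 4.23% in the parental and at 4.24% against 4.25% and 4.18% against 4.29% in the cKO library. The median share of a cell's UMIs that came from chromosome 19 was 3.78% in parental keratin-high cells and 3.25% in other ESC, and 4.12% and 3.39% in the cKO library. For the X chromosome the medians were 3.07% and 2.69% in the parental and 3.35% and 2.93% in the cKO library. Counted over genes within 2-fold only, the X shares were 2.20% and 2.34%, and 2.60% and 2.64%. The chromosome 19 shares counted that way stayed higher in keratin-high cells, at 3.92% and 3.35% in the parental and 3.46% and 3.18% in the cKO library. No library was compared with a karyotype, so the number of chromosomes was not tested.

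Y-linked UMIs were found in 14 of 24 parental keratin-high cells without an Xist UMI, at a median of 24.2 CPM, and in 799 of 1164 such other ESC, at a median of 82.1 CPM. In the cKO library they were in 25 of 27 keratin-high cells, at 271 CPM, and in 383 of 421 other ESC, at 199 CPM. The 2 parental and 1 cKO keratin-high cells with 5 or more Xist UMIs included 1 of each library with Y-linked UMIs.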
